A study of Homo sapiens with 4 samples.

Results

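Knockdown-only 3′-UTR peaks are m6A peaks that the authors called in A549 cells with reduced YTHDF2, annotated to a 3′-UTR, whose exonic blocks shared not even 1 bp with a control peak of the same strand. They were chosen by the presence of a call in the knockdown list and its absence from the control list. There were 4819 such peaks among the 16264 3′-UTR peaks of the knockdown list (29.6%, 95% Wilson interval 28.9 to 30.3) and the 27344 distinct peaks of that list in all. Of all 27344 knockdown peaks 34.6% met no control peak, with 33.8% of those in 5′-UTRs and 47.2% of those in other exons, so 3′-UTR peaks lacked a counterpart less often than the list as a whole. The members lay in 3667 genes by symbol. The other 11445 knockdown 3′-UTR peaks met a control peak and are called shared below. In the control list, 7167 of 18357 3′-UTR peaks (39.0%, 38.3 to 39.8) met no knockdown peak and are called control-only, beside 44.1% of all 31057 control peaks.

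N6-methyladenosine (m6A) is a methyl mark on adenosines of mRNA that is laid down by a methyltransferase complex around METTL3 and METTL14. It is known to sit mostly in the sequence context DRACH, of which GGACT is a common form, and to be dense near stop codons and in 3′-UTRs. YTHDF2 is a cytoplasmic reader protein that binds methylated transcripts and recruits the CCR4-NOT deadenylase complex, which shortens the poly(A) tail and leads to decay of the mRNA. In m6A-seq, also called MeRIP-seq, fragmented poly(A) RNA is precipitated with an antibody against m6A (IP) and compared with the unprecipitated fragments (input). A peak is a stretch where the IP library exceeds the input library.

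The cells were A549, an established human lung adenocarcinoma line. They carried a lentiviral vector with a control shRNA (shNC) or with an shRNA against YTHDF2 (shY2-2), and infected cells were selected with puromycin. Each condition had 1 input and 1 IP library, 4 libraries in all, and peaks were called for each condition on its own IP and input library. With 1 library of each kind, differences between shNC and shY2-2 lack a replicate check and have no p-value here, and intervals cover the counting of peaks only. Deposited values were fold enrichments, p-values and FDR values per peak and FPKM per gene, which keep neither read counts nor depth. A bulk library cannot tell a change in every cell from a change in some of the cells.

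YTHDF2 itself fell from 3.56 FPKM in shNC to 1.02 FPKM in shY2-2 (log2 ratio -1.18). Of the 9 epithelial and A549 markers, 6 stood at 281 FPKM or more in both libraries (KRT8 at 523 and 322 FPKM, ALDH1A1 at 2157 and 1238 FPKM), while EPCAM stood at 2.02 and 1.20 FPKM, CDH1 at 9.99 and 5.28 FPKM and KRT19 at 25.9 and 12.9 FPKM. The 3 endothelial markers summed to 0.123 FPKM in shNC and 0.0533 FPKM in shY2-2, and the 3 fibroblast markers to 1.32 and 1.72 FPKM, with COL1A1 at 0.834 and 1.64 FPKM. Of the 3 leukocyte markers CD68, a lysosomal protein that is not limited to leukocytes, stood at 12.2 and 10.2 FPKM, and PTPRC and CD3E at or below 0.0999 FPKM. Of the alveolar markers found in the table, SFTPC was at or below 0.067 FPKM and NAPSA at or below 0.252 FPKM in both, while ABCA3 stood at 4.81 and 3.62 FPKM.

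The sites below are examples of GGACT in knockdown-only peaks, of which 22.1% held it. For the 10 peaks with the highest fold enrichment among those with an FDR of at most 0.05 in genes that reached 1 FPKM in both inputs, 4 held GGACT, and the site nearest the middle of the peak is printed where the flanks lay inside the peak. Bases are from GRCh38, read 5′ to 3′ on the strand of the gene over 25 nt, and capitals mark GGACT.
BRI3BP, chr12:125027812-125027836, + strand: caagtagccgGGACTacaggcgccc
TOMM40, chr19:44902425-44902449, + strand: tcgaactcctGGACTcaagccttgg
GEMIN6, chr2:38784567-38784591, + strand: agcatcaattGGACTtgatcttggc
The BRI3BP and GEMIN6 sites lie in the reference 3′-UTR, with the central adenosine 2394 and 2687 nt after the stop codon. The TOMM40 site lies outside the reference transcript, the canonical transcript of GENCODE release 44.

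Sites from 8 further knockdown-only peaks that held GGACT were chosen after their values were seen. They are examples from the Wnt pathway, from genes with shifted RNA levels and from genes with strong peaks.
AXIN1, chr16:288114-288138, - strand: tggagaaggtGGACTgataggctgg
BTRC, chr10:101553232-101553256, + strand: cagtttccctGGACTagccgaggag
BTRC, chr10:101554104-101554128, + strand: catcttttctGGACTcagcagtctc
FZD5, chr2:207766952-207766976, - strand: tgccgccgagGGACTcggccggaga
TCF7L2, chr10:113167035-113167059, + strand: cttaggacccGGACTgaccgtgtac
WASHC4, chr12:105168975-105168999, + strand: caggaattaaGGACTcaccataaca
TM4SF4, chr3:149498874-149498898, + strand: ccctctgtggGGACTgccagtgttg
GSTP1, chr11:67586577-67586601, + strand: agggttggggGGACTctgagcggga
Counted from the last base of the stop codon, the AXIN1 adenosine lies at -4 nt and the TM4SF4 adenosine at -43 nt, both in coding sequence. The others lie in reference 3′-UTRs, 12 nt after the stop codon in GSTP1, 18 nt in FZD5, 121 and 993 nt in BTRC, 1075 nt in TCF7L2 and 2056 nt in WASHC4. The TCF7L2 peak had an FDR of 0.167. The JUN and CD44 peaks that were knockdown-only held no GGACT.

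Most genes with a knockdown-only 3′-UTR peak had only 1 peak of this kind. Of these genes, 2768 had 1 such peak, 701 had 2 and 198 had 3 or more, and the most in a gene was 6. Shared peaks and control peaks of the same gene do not enter these counts. UBE2D4, a ubiquitin-conjugating enzyme, had 6, with fold enrichments from 1.57 to 6.94 and FDR values from 0.00112 to 0.556, and all its knockdown peaks were of this kind although the control list had 5 peaks elsewhere in its 3′-UTR. TM6SF1 also had 6, at 0.0353 and 0.0108 FPKM in the shNC and shY2-2 inputs, all outside the reference transcript. TOM1L1, LUC7L2 and C17orf51 had 5 each. Most of the TOM1L1 peaks, among them the strongest with an FDR of 1.78e-07, lie over a control peak of COX11 on the opposite strand. In LUC7L2, a splicing factor, the strongest peak of this kind had a fold enrichment of 2.11 and an FDR of 8.91e-06. Some others in LUC7L2 lie in coding sequence or outside the reference transcript. Several peaks of these genes overlap each other in genome position, so the peaks of a gene are not independent sites. In UBE2D4, 3 of the 6 covered nearly the same bases around the stop codon.

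Because the rule compares lists of called peaks, the fold enrichment and FDR of the members belong to the same contrast that chose them and are given as a description. The median fold enrichment of IP over input was 2.78 in knockdown-only peaks (95% order-statistic interval 2.70 to 2.81, quartiles 1.88 and 5.78) against 2.08 in shared peaks (2.06 to 2.10) and 2.10 in control-only peaks (2.07 to 2.12). The median FDR went the other way, at 0.207 against 0.00166 in shared and 0.112 in control-only peaks. An FDR of at most 0.05 was reached by 990 knockdown-only peaks (20.5%, 19.4 to 21.7), beside 52.1% of all knockdown peaks and 71.1% of shared 3′-UTR peaks. A fold enrichment of at least 4 was reached by 1692 (35.1%, 33.8 to 36.5), beside 22.9% of all knockdown peaks and 13.3% of shared ones. Knockdown-only peaks thus had higher ratios and weaker support than shared peaks, and were shorter, at a median of 210 nt of exonic sequence against 301 nt, while control-only peaks had the same median of 210 nt.

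Many of the peaks carried the same values to the last digit. The pair of p-value and fold enrichment was shared with at least 1 other peak of the list in 84.9% of knockdown-only peaks (83.8 to 85.9), 42.2% of shared and 78.1% of control-only peaks. The most common pair, a p-value of 0.042 with a fold enrichment of 6.94, occurred in at least 348 knockdown-only peaks. The FDR given with it was not the same in all of them, at 0.979 in METTL14 and 0.556 in UBE2D4. A p-value of 0.022 with a fold enrichment of 8.09 occurred in at least 172 and a p-value of 0.011 with 9.25 in at least 89. The 100 knockdown-only peaks with the highest fold enrichment, from 11.6 to 25.4, held only 12 distinct fold enrichments. How many reads stand behind a pair is not known here.

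**Figure D1:**
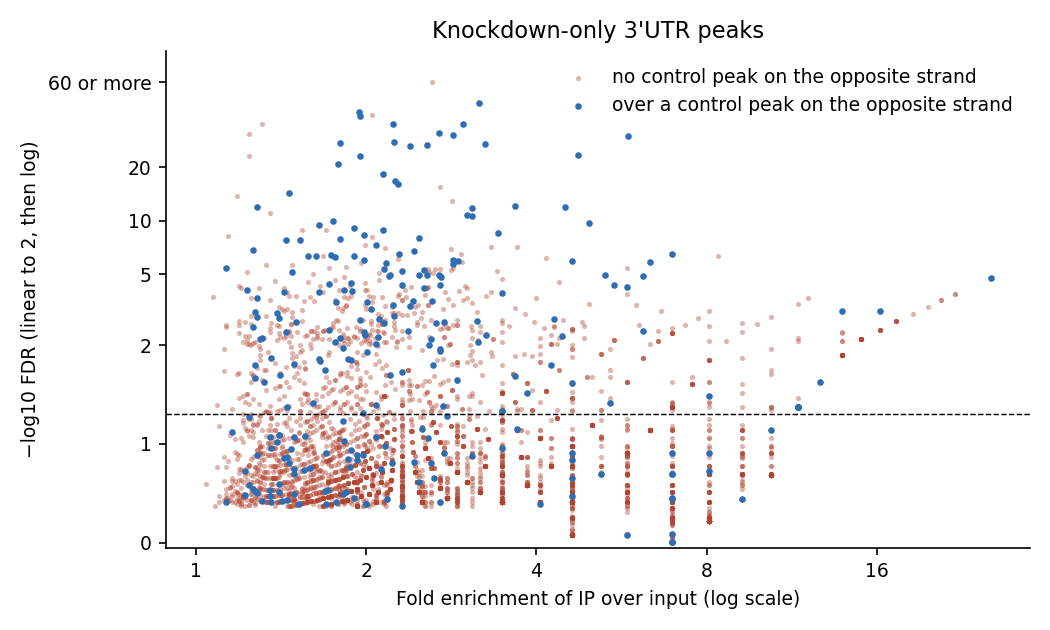
Each point is a knockdown-only 3′-UTR peak, with the fold enrichment of IP over input on a log axis and −log10 of the FDR on an axis that is linear to 2 and logarithmic above, where values over 60 are drawn at 60. The dashed line marks an FDR of 0.05, blue points lie over a control peak on the opposite strand, and the vertical columns of points at fold enrichments such as 6.94 and 8.09 are peaks with equal values.

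The 10 knockdown-only peaks with the highest fold enrichment in expressed genes, taken as 1 per gene at an FDR of at most 0.05, came from genes of different function. The highest was in BRI3BP, a membrane protein gene, with a fold enrichment of 25.4 and an FDR of 1.78e-05. It lies 2313 nt after the stop codon in a 3′-UTR that has 7 control peaks, the nearest 616 nt away. It also lies over a control peak of THRIL on the opposite strand, which had a fold enrichment of 14.5. TOMM40, the channel of the outer mitochondrial membrane translocase, followed with 20.8 and an FDR of 0.000269. SMAD2, a signal transducer of TGF-beta, PIP5K1A, a phosphoinositide kinase, TYW3, a tRNA modification enzyme, and GEMIN6, a component of the SMN complex, shared a fold enrichment of 17.3 and an FDR of 0.00191. ALX4 and ZNF205 shared 16.2 and 0.00363, and MTF2 and OPTN 15.0 and 0.00676. The FPKM of these 10 genes ranged from 1.15 in ALX4 to 47.2 in TOMM40 in the shNC input and from 1.09 in SMAD2 to 65.7 in TOMM40 in the shY2-2 input. The log2 ratios of their RNA ran from -0.92 in BRI3BP to 0.47 in TOMM40, so none passed 1 or -1.

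The strongest support by p-value was found at other peaks. RPS2, a ribosomal protein gene with 940 and 1466 FPKM in the shNC and shY2-2 inputs, had the lowest, with an FDR of 1e-131 at a fold enrichment of 2.61 over 61 nt. By the reference transcript that peak lies in coding sequence, at -525 nt from the stop codon. RPL26, another ribosomal protein gene, had an FDR of 5.01e-40 at 422 and 451 FPKM. Ranked about it were ABHD8, RBKS and CLTA with FDR values of 1.26e-46, 3.16e-41 and 3.16e-39, and each of these 3 lies over a control peak that is annotated to a gene on the opposite strand (MRPL34, MRPL33 and GNE). GSTP1, a glutathione transferase, had a fold enrichment of only 1.31 with an FDR of 1.26e-35 at 344 and 452 FPKM, and a control peak lies 89 nt away. RPS2, ABHD8, RBKS, CLTA, GSTP1 and the pairs of genes in the next paragraph were picked with their values in view.

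Control peaks on the opposite strand were therefore counted for all members. Of the 4819 knockdown-only peaks, 250 (5.19%, 4.60 to 5.85) met a control peak on the opposite strand. The share rose with the strength of the peak, from 2.38% of 3829 peaks with an FDR over 0.05 to 8.73% of 756 with an FDR of 0.05 to 0.001, 25.4% of 134 down to 1e-05, 50.8% of 65 down to 1e-10 and 74.3% of 35 below that. At an FDR of at most 1e-20, 16 of 21 peaks lay over such a control peak. Among control-only 3′-UTR peaks with an FDR of at most 0.001, 16.6% (13.7 to 19.9) met a knockdown peak on the opposite strand, against 39.7% (33.7 to 46.1) of knockdown-only peaks at that FDR. In PHF1, a chromatin reader gene, the knockdown peak had a fold enrichment of 2.69, and the control peak over it is annotated to CUTA with 2.31. In OXLD1 the values were 2.85 and, for the control peak annotated to CCDC137, 2.66. In TSR2 they were 1.80 and, for FGD1, 1.96. The library protocol in the labels marks strand by dUTP, and whether peaks were called by strand is not given in the sources used here. Reads from overlapping genes on opposite strands cannot be told apart in these files, and their part in the list was not tested. Without these 250 peaks 4569 were left. At an FDR of at most 0.05, a setting chosen after the data were seen, 831 were left of 990.

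**Figure D2:**
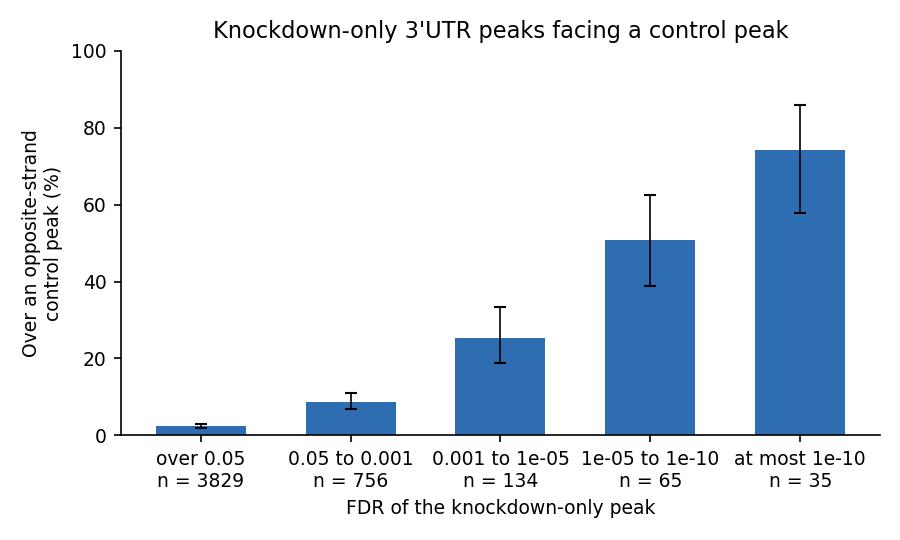
Share of knockdown-only 3′-UTR peaks that lie over a control peak on the opposite strand, in percent with 95% Wilson intervals, by class of the FDR of the knockdown-only peak. The share rises from 2.38% of 3829 peaks to 74.3% of 35 peaks.

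Peaks that combined strong values with distance from any control peak were few. Of 31 members with an FDR of at most 0.001 and a fold enrichment of at least 4, 11 had no control peak on either strand within 500 nt, limits chosen after the data were seen. In expressed genes they included NDRG1, a stress response gene, with a fold enrichment of 8.38 and an FDR of 4.68e-07, and NDUFS7, a subunit of mitochondrial complex I, with 5.78 and 3.89e-06. VAPB, a tether of the endoplasmic reticulum, had 5.78 and 0.000141, KMT2D, a histone methyltransferase, 6.01 and 0.000457, and STIM1, a calcium sensor, 6.65 and 0.000813. The log2 ratios of RNA of these 5 genes ran from -0.16 in NDRG1 to 0.22 in STIM1. DES, the muscle intermediate filament gene, had a knockdown-only peak as its only peak in either list, with a fold enrichment of 19.7 over 1485 nt in 7 exonic blocks and an FPKM of 1.05 in shNC and 0.11 in shY2-2. GGACT occurred in 5 of the 11. The letters GGATTACAG or their reverse complement CTGTAATCC, which are common in Alu repeats, occurred in 3 of the 11, and the TOMM40 and MMACHC peaks held both these letters and GGACT. Of the 10 peaks with the highest fold enrichment, those of TOMM40 and GEMIN6 held these letters. Other letters of the repeat were not searched, so a peak without these may still hold repeat sequence. The printed BRI3BP site has a stretch close to these letters that was not counted. The searched letters occurred in 5.25% (4.66 to 5.92) of all knockdown-only, 4.78% of shared and 2.80% of control-only peaks. In the middle 101 nt they occurred in 1.76% (1.40 to 2.22), 1.29% and 1.37% of peaks of at least 101 nt. Of 101-nt tiles of reference 3′-UTRs, 2.13% held them. How the authors placed reads with several matches is not given in the sources used here.

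The share of peaks found in the knockdown list only went down as the expression of the gene went up. The genes of knockdown-only peaks had a median FPKM of 3.03 in the shNC input and 2.79 in the shY2-2 input, against 7.15 and 7.10 for genes of shared peaks and 4.21 and 3.84 for genes of control-only peaks. Of the knockdown 3′-UTR peaks in genes below 1 FPKM in both inputs, 58.3% (55.9 to 60.7) were knockdown-only, and of those in genes at 50 FPKM or more, 10.2% (8.45 to 12.3). The share fell in every step between, to 50.9, 39.3, 24.6, 16.5 and 11.5%. Control-only peaks made up a falling share of the control list as well, from 52.5% below 1 FPKM and 56.4% at 1 to 2 FPKM to 13.7% at 50 FPKM or more. The median fold enrichment of knockdown-only peaks fell from 5.78 in genes below 1 FPKM to 1.61 at 20 to 50 FPKM and 1.85 at 50 FPKM or more, while that of shared peaks went from 2.69 to 1.91. The part of low expression in the list was not tested.

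**Figure D3:**
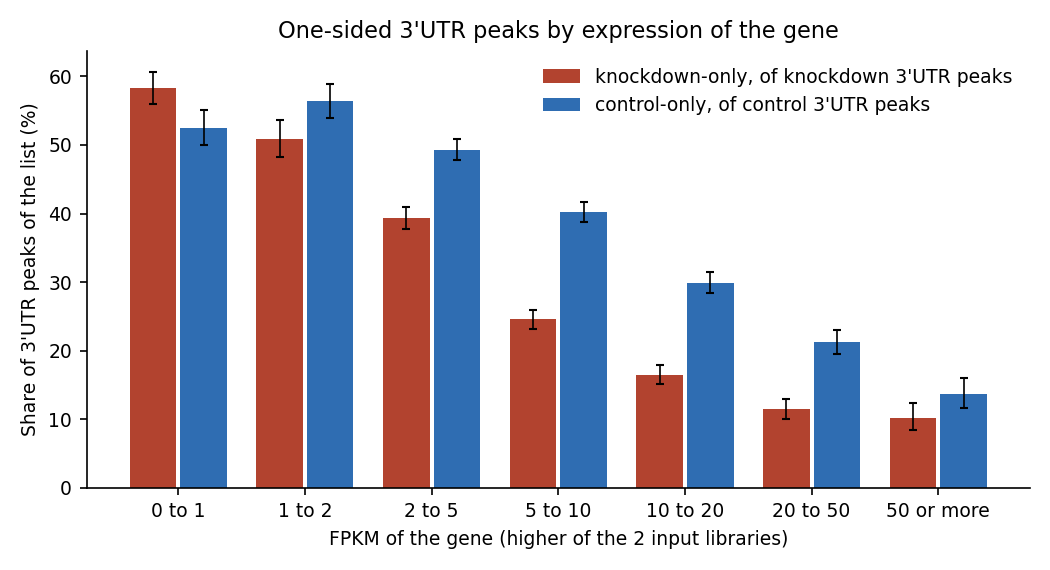
Share of 3′-UTR peaks without a counterpart in the other list, in percent with 95% Wilson intervals, by the FPKM of the gene in the higher of the 2 input libraries. Knockdown-only peaks fall from 58.3 to 10.2% of knockdown 3′-UTR peaks and control-only peaks from 52.5 to 13.7% of control 3′-UTR peaks.

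In most cases the gene had a control peak in another place. Of the knockdown-only peaks, 3218 (66.8%, 65.4 to 68.1) lay in a gene with a control peak elsewhere in its 3′-UTR and 529 (11.0%, 10.1 to 11.9) in a gene with control peaks only outside it. The other 1072 (22.2%, 21.1 to 23.4) lay in a gene with no control peak, a share that came to 6.21% (5.04 to 7.64) where both inputs reached 5 FPKM. For control-only peaks the share in a gene with no knockdown peak was 19.8% (18.9 to 20.8). There were 692 genes whose only peaks in either list were knockdown-only 3′-UTR peaks, with a median FPKM of 0.797 in shNC and 0.653 in shY2-2. A control peak on the same strand lay within 20 kb of 3718 members, at a median gap of 853 nt, and within 100 nt of 365 of them. The members closest to the limit were in B3GNT4 and RDH13, both 4 nt from a control peak, and in GCDH, 7 nt away. The shared peaks just outside it, in CBX8, CEP89 and INF2, met a control peak by 1 nt.

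Knockdown-only peaks lay farther from the stop codon than shared peaks. Of the 4819, 4592 were in a gene with a coding reference transcript, and 3300 of these (71.9%, 70.5 to 73.1) met its 3′-UTR, 1150 (25.0%) its coding sequence and 605 (13.2%) no base of it. Which transcripts the authors' annotation used is not given in the sources used here. The midpoint of the 3658 that could be placed lay at a median of 864 nt after the stop codon (814 to 930), against 344 nt (326 to 365) in shared and 564 nt (518 to 605) in control-only peaks. Within 100 nt of the stop codon lay 10.6% (9.65 to 11.6) of knockdown-only midpoints, 20.6% (19.8 to 21.4) of shared and 12.4% (11.5 to 13.2) of control-only ones. More than 2000 nt after it lay 25.5, 11.9 and 20.4%. The 3′-UTRs themselves were longer, at a median of 2415 nt for placed knockdown-only peaks and 2438 nt for control-only peaks against 1615 nt for shared peaks. Relative to the length of the 3′-UTR, the median position was 0.562 (0.545 to 0.581) in knockdown-only, 0.439 in shared and 0.447 in control-only peaks, where 0 is the stop codon and 1 the transcript end. Within 150 nt of the transcript end lay 10.9% (9.94 to 12.0) of knockdown-only, 8.80% of shared and 4.99% (4.46 to 5.58) of control-only midpoints.

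The position moved with the FDR. Members with an FDR of at most 0.05 had a median of 511 nt after the stop codon (404 to 620) and those with an FDR of at most 0.001 had 255 nt (146 to 361), against 964 nt (896 to 1035) above 0.05. In shared peaks the medians were 276, 231 and 590 nt in the same order, and in control-only peaks 367, 234 and 674 nt. Of the members with an FDR of at most 0.001, 39.7% lay over a control peak on the opposite strand. Knockdown-only peaks were thus farther from the stop codon than shared peaks at an FDR of at most 0.05 and above it, while at 0.001 their intervals overlapped.

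**Figure D4:**
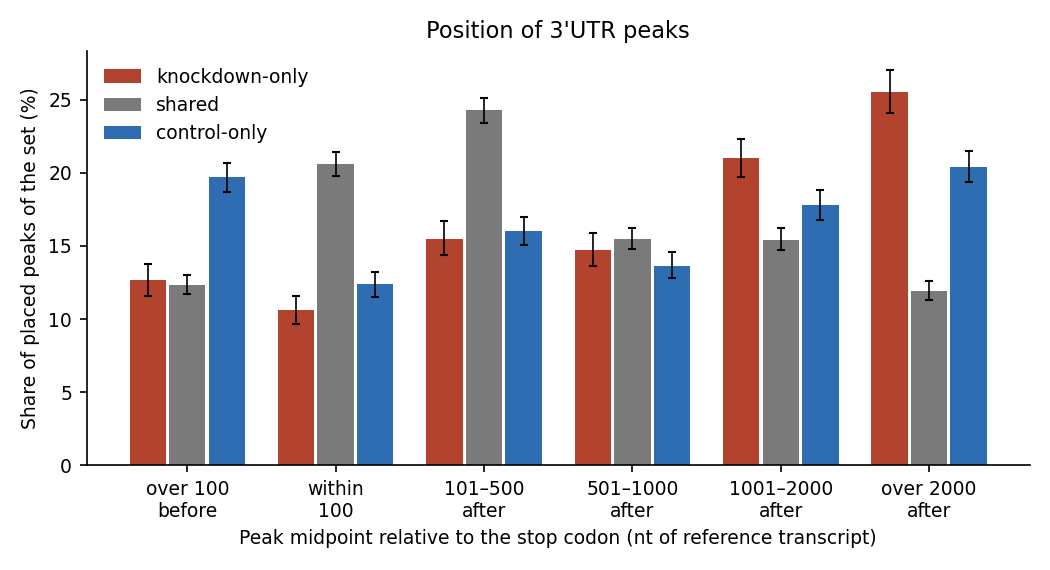
Share of the peaks of each set, in percent with 95% Wilson intervals, by the distance of the peak midpoint from the stop codon of the reference transcript in nt. Shared peaks are most frequent at 101 to 500 nt, and knockdown-only peaks at over 2000 nt (25.5%).

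GGACT, 1 form of the m6A motif, was present in the members at a density between that of shared peaks and that of 3′-UTRs at large. GGACT occurred 0.967 times per kb of knockdown-only peaks, 1.17 times in shared and 0.996 times in control-only peaks, beside 0.827 times in the reference 3′-UTRs of 10656 kept genes. For windows of equal length the middle 101 nt were read, and shorter peaks were left out. This kept 4023 of 4819 knockdown-only, 10736 of 11445 shared and 6201 of 7167 control-only peaks. GGACT was found in 9.92% (9.03 to 10.9) of knockdown-only, 11.2% (10.6 to 11.8) of shared and 10.4% (9.62 to 11.1) of control-only middles. It was found in 7.74% of 196923 tiles of 101 nt from reference 3′-UTRs. The reverse complement AGTCC, which is not the motif, was found in 7.13% (6.38 to 7.97) of the middles and 7.05% of tiles. The shorter core GGAC, part of every GGACT, was found in 26.7% (25.3 to 28.1), 32.7% and 28.8% of middles and 21.4% of tiles. GGACA and GGACC were found in 10.3% and 7.73% of knockdown-only middles, beside 8.22% and 5.95% of tiles. AGACT, another DRACH form, was found in 10.4% (9.46 to 11.3) of knockdown-only, 11.4% of shared and 11.5% of control-only middles. Its share of tiles was 9.93%, which lies inside the knockdown-only interval. By whole peak, 22.1% (20.9 to 23.3) of knockdown-only and 32.4% of shared peaks held GGACT at their median lengths of 210 and 301 nt. Among members the density of GGACT was 0.916 per kb at an FDR over 0.05, 1.15 at an FDR of at most 0.05 and 1.31 at an FDR of at most 0.001. Shared peaks had 1.01, 1.20 and 1.22 in the same order, and control-only peaks 0.965, 1.03 and 1.01. Of the members with an FDR of at most 0.001, 39.7% lay over a control peak on the opposite strand. The median GC content of the middle 101 nt was 45.5% in knockdown-only, 48.5% in shared and 44.6% in control-only peaks and 40.6% in tiles, so the sets differed from the tiles in base composition as well. Tiles held reference 3′-UTR only. In genes with a coding reference transcript, 25.0% of knockdown-only, 40.4% of shared and 33.8% of control-only peaks met coding sequence. The part of coding sequence in the motif shares was not tested.

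Other motifs of 3′-UTRs were counted in the same windows. ATTTA, the core of AU-rich elements that direct mRNA decay, was found in 14.2% (13.1 to 15.3) of knockdown-only, 10.7% (10.1 to 11.3) of shared and 12.6% (11.8 to 13.4) of control-only middles and in 18.3% of tiles. AATAAA, the main polyadenylation signal, was found in 6.14% (5.44 to 6.92), 5.49% and 5.74% of middles and in 7.96% of tiles. A match of letters is a description and does not show that a site is methylated or bound.

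RNA levels of the genes with a knockdown-only 3′-UTR peak were close to those of other genes. Ratios are log2((FPKM shY2-2 + 1)/(FPKM shNC + 1)), which understates changes of genes with low FPKM, and genes were kept if either input reached 1 FPKM. Of the genes with such a peak 3614 were in the FPKM table and 2900 were kept, with a median ratio of -0.04 (-0.06 to -0.03), beside 0.00 (-0.01 to 0.01) for all 12268 genes kept, 0.03 for genes with a shared peak and -0.07 for genes with a control-only peak. A ratio above 1 was found for 14 of the 2900 (0.483%), beside 0.986% of all genes kept, and a ratio below -1 for 48 (1.66%), beside 2.14% of all genes kept. With a pseudocount of 0.1 these counts were 44 and 133 of the 2900, beside 2.57% and 4.91% of all genes kept. The 1344 kept genes with knockdown-only and no shared 3′-UTR peak had a median of -0.09 (-0.12 to -0.07), the 1556 with both kinds 0.00 (-0.02 to 0.02) and the 5013 with shared peaks only 0.04 (0.03 to 0.05). These classes differ in FPKM, and ratios moved with FPKM over all genes. At 1 to 2 FPKM the medians were -0.11 for genes with knockdown-only peaks alone, -0.04 for genes with shared peaks alone and -0.05 for all genes. In the same order they were -0.10, 0.01 and -0.04 at 2 to 5 FPKM and -0.10, 0.01 and -0.02 at 5 to 10 FPKM. At 10 to 20 FPKM they were 0.00, 0.06 and 0.05. At 20 to 50 FPKM, with 40 genes of knockdown-only peaks alone, they were 0.12, 0.09 and 0.10. At 50 FPKM or more, with 11 such genes, they were 0.20, 0.15 and 0.17.

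Among genes with at least 5 FPKM in 1 of the inputs and a knockdown-only peak at an FDR of at most 0.05, the lowest ratio was that of TM4SF4, a tetraspanin-like membrane protein gene, at 24.1 FPKM in shNC and 6.48 in shY2-2. Its peak crosses the stop codon with a fold enrichment of 2.13 and an FDR of 0.000191. DUSP16, a MAP kinase phosphatase, went from 12.3 to 3.68 FPKM, WASHC4, a subunit of the endosomal WASH complex, from 7.81 to 2.53, DCBLD2 from 78.9 to 35.0 and SGPP1, a sphingosine-1-phosphate phosphatase, from 9.86 to 4.02. The DUSP16 peak lies in coding sequence of the reference transcript, at -928 nt from the stop codon. It also lies over a control peak of AC007619.1 on the opposite strand, which had a fold enrichment of 1.92. The peak of WASHC4 was its only peak in either list, 2021 nt after the stop codon, with a fold enrichment of 13.9 and an FDR of 0.00447. The highest ratio was that of SPATA2, a regulator of TNF receptor signaling, from 1.02 to 6.63 FPKM, or 1.92 on the log2 scale. MAFG, a small MAF protein that pairs with NRF2, went from 9.84 to 31.4 FPKM with a log2 ratio of 1.58, and its knockdown-only peak, with a fold enrichment of 1.39 and an FDR of 0.00741, was its only peak in either list. RPUSD4, a mitochondrial pseudouridine synthase, ABHD6, a lipase, and ADPGK, a glucokinase, had log2 ratios of 1.53, 1.31 and 1.15. The ADPGK peak lies in coding sequence of the reference transcript, at -779 nt from the stop codon. These 10 genes were taken from the ends of the ratios, and genes with such a peak lay on both sides.

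**Figure D5:**
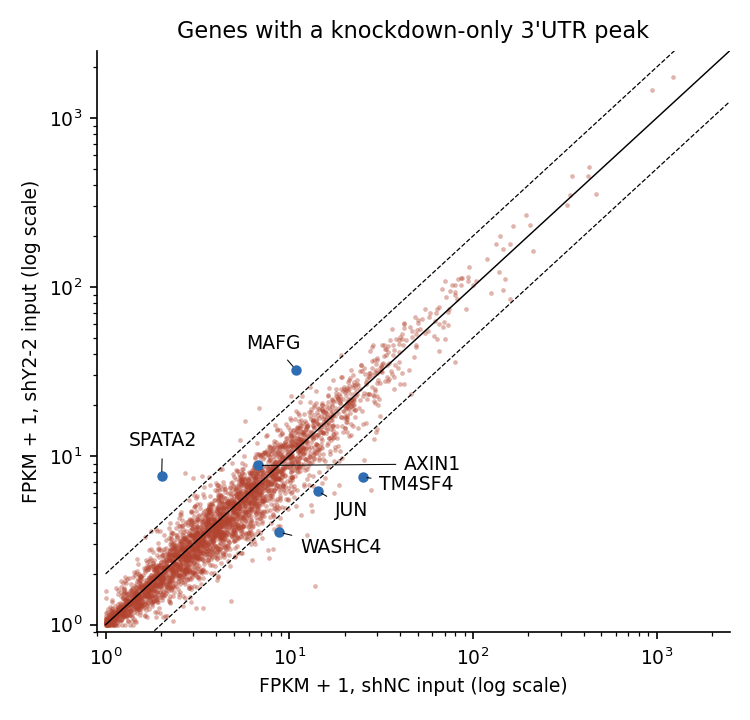
FPKM + 1 of each gene with a knockdown-only 3′-UTR peak in the shNC input (x axis) and the shY2-2 input (y axis), both on log axes. The solid line marks equal values and the dashed lines a log2 ratio of 1 and -1, which 14 and 48 of the 2900 kept genes passed.

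Genes that had been measured singly in the study, and PGD, a pentose phosphate enzyme known from earlier work on YTHDF2, were read next. AXIN1, JUN and CD44 had knockdown-only 3′-UTR peaks. AXIN1, a scaffold of the complex that degrades beta-catenin, had 2, and the control list had no peak in its 3′-UTR. The first spans the stop codon with a fold enrichment of 1.38 and an FDR of 0.0151, and the other lies 412 nt after the stop codon with 1.55 and 0.158, so the latter missed the limit of 0.05. AXIN1 RNA stood at 5.78 FPKM in shNC and 7.77 in shY2-2, a log2 ratio of 0.37. JUN, an immediate-early transcription factor, had 1 at a fold enrichment of 5.78 and an FDR of 0.0646, 239 nt from a control peak, and its FPKM was 13.3 and 5.18. CD44, an adhesion receptor, had 1 with 1.26 and 0.244 beside 3 control peaks, at 18.6 and 12.8 FPKM. CTNNB1, MYC, FN1, MMP7, PGD and YTHDF2 had knockdown 3′-UTR peaks but none that was knockdown-only, and MMP2 had no peak in either list.

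Gene lists were read against all kept genes with a knockdown 3′-UTR peak, of which 36.7% (2901 of 7913 by symbol) had a knockdown-only one. Of the 2900 kept genes with a knockdown-only peak, counted by identifier, 773 (26.7%) had one at an FDR of at most 0.05. In the Wnt pathway 8 of 24 genes with a knockdown 3′-UTR peak had a knockdown-only one at any FDR (33.3%, 18.0 to 53.3), from receptors to nuclear factors. The receptors were FZD5, FZD8 and LRP6, the scaffolds of the degradation complex AXIN1 and AMER1, the ubiquitin ligase adaptor BTRC, and the nuclear factors TCF7L2 and PYGO2. At an FDR of at most 0.05 they came down to 4 of the 8, AXIN1, BTRC, FZD5 and PYGO2. BTRC had 4 such peaks, the strongest with a fold enrichment of 3.47 and an FDR of 0.00224 and the next with 2.70 and 0.00347, and its RNA stood at 4.98 FPKM in shNC and 5.17 in shY2-2. FZD5 also had 4, from its stop codon to 4216 nt after it, with FDR values from 0.0417 to 0.603, at 4.07 and 2.96 FPKM. PYGO2 had 1 over the stop codon with 2.05 and 0.000631, 179 nt from a control peak.

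Of the m6A machinery 7 of 19 genes with a knockdown 3′-UTR peak had a knockdown-only one (36.8%, 19.1 to 59.0). They were the methyltransferase subunits METTL3 and METTL14, the cofactors RBM15B, ZC3H13 and CBLL1, and the readers YTHDC2 and IGF2BP3. METTL3 alone reached an FDR of at most 0.05, with a fold enrichment of 1.32 and an FDR of 0.0178, and that peak lies in coding sequence of the reference transcript. ZC3H13 followed with 4.24 and 0.0575, 238 nt from a control peak. The METTL14 peak had the common pair with a fold enrichment of 6.94 and an FDR of 0.979. None of the 9 peaks held GGACT. Among genes of the CCR4-NOT complex and mRNA decay 5 of 18 had one (27.8%, 12.5 to 50.9), namely CNOT6L, DCP1A, DCP2, RIDA and UPF1, none at an FDR of at most 0.05.

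In the RAS-MAPK pathway 9 of 22 genes had a knockdown-only 3′-UTR peak (40.9%, 23.3 to 61.3). The receptor EGFR had 1 at a fold enrichment of 1.48 and an FDR of 0.0120, 89 nt from a control peak, the phosphatase DUSP6 at 4.63 and 0.0339, and NF1, a RAS GTPase activator, at 1.99 and 0.0251. For immediate-early and other transcription factors the count was 3 of 14, JUN, ATF3 and SOX9, of which SOX9 reached 4.16 with an FDR of 0.0288. For p53 targets it was 3 of 15, CCNG1, MDM4 and XPC. For adhesion and matrix genes it was 9 of 25 (36.0%). Among them were VCL, which links adhesions to actin, with 1.48 and 2.34e-06, and the intermediate filament gene VIM with 1.21 and 0.00851. By the reference transcript these NF1 and XPC peaks lie in coding sequence, at -7828 and -1598 nt from the stop codon. This VIM peak lies outside the reference transcript. All these shares had intervals that include 36.7%.

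Of the 10 lists, 2 had intervals that lay clear of the share over all genes. None of 16 NRF2 and pentose phosphate genes with a knockdown 3′-UTR peak had a knockdown-only one, a Wilson interval of 0 to 19.4%, and none of their 35 peaks was knockdown-only. Their median FPKM was 214. Of the 160 zinc finger genes 83 had a knockdown-only peak (51.9%, 44.2 to 59.5), 16 of the 83 at an FDR of at most 0.05, beside 26.7% over all such genes. The median FPKM of the 160 was 2.76, against 7.40 over all kept genes with a knockdown 3′-UTR peak. Zinc finger genes with a control-only 3′-UTR peak numbered 106, beside 4144 over all genes, where 239 and 12250 genes were kept. The knockdown-only share also fell with FPKM over all genes, as given above, and the part of expression in either list was not tested. Of the ribosomal protein genes, at a median of 203 FPKM, 15 of 49 had one (30.6%, 19.5 to 44.5), led at an FDR of at most 0.05 by RPS2 with 2.61, RPL28 with 2.14 and RPL26 with 2.05. The RPL28 peak lies over a control peak of UBE2S on the opposite strand, and the RPL26 peak outside the reference transcript. Ribosomal protein genes have many processed copies in the genome, so the note on reads with several matches applies to them as well.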

How the data were processed

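Deposited peak and gene values were used from 1 input and 1 IP library of each condition (shNC and shY2-2, A549 cells). Per the labels and the study's methods, the authors used HISAT2 to place reads on GRCh38, computed FPKM values per gene from the input libraries with StringTie, called peaks with exomePeak on IP against input and annotated them with ChIPseeker. Versions, peak limits and the handling of strand are not given in the sources used here. The deposited fold enrichment (the linear IP to input ratio), the deposited p-value and the deposited log10 scores of p and FDR are the authors' values, and the largest p-value in the knockdown list was 0.049. The deposited lists are much longer than the peak sets the study describes, and the limit that separates them is not given in the sources used here. Columns of the authors' own comparisons were not used.

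Peaks were made distinct by chromosome, blocks and strand. Overlap was judged on exonic blocks of the same strand (at least 1 bp). Positions and sequences came from GENCODE release 44 canonical transcripts and GRCh38 bases, and motifs were read on the strand of the gene in spliced peak sequence. Since FPKM values are not counts, no count test was run. The pseudocount was 1 FPKM and genes with at least 1 FPKM in at least 1 input were kept. Shares have 95% Wilson intervals and medians 95% order-statistic intervals. They cover the number of peaks or genes only. Depth is unknown.

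The members and all gene lists were chosen with earlier results of these data known. Named were the genes the study measured, PGD, which it cites from earlier work, the 10 peaks with the highest fold enrichment, the 5 genes with most members, the 5 lowest and 5 highest ratios at 5 FPKM or more and an FDR of at most 0.05, and members of the lists. For lists other than the m6A machinery and the Wnt pathway, at most 3 members at that FDR were named with values. Alternatives changed FDR, fold enrichment, overlap rule, strand, pseudocount, FPKM filter, centring and motif. Overlap, position and interval steps were tested on simulated data. Computations used Python 3.11.15, NumPy 2.4.6, pandas 2.3.3, SciPy 1.17.1 and matplotlib 3.10.9.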

Additional observations from a re-analysis of the deposited data

How the results depend on the processing

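No paired analysis was possible because each condition has 1 library of each kind, and for the same reason no library could be left out. Of 67 recomputed values 28 stayed within 1.5 times of a count or within the interval of a share or median, 38 moved beyond it and 1 reversed. Settings for either strand, apart from the count and share of peaks, were chosen after the data were seen.

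With an FDR of at most 0.05 there were 990 knockdown-only peaks (10.8% of 3′-UTR peaks), with a median fold enrichment of 2.48, a median log2 ratio of 0.01, 5 genes above 1 and 9 below -1, a median of 511 nt after the stop codon and GGACT in 29.1%. With an FDR of at most 0.001 there were 234 (4.07%), of which 27.4% were in a gene with no control peak, with a median fold enrichment of 2.24, 1 gene above 1 and 1 below -1, a median of 255 nt and GGACT in 35.0%. The median log2 ratio reversed there, to 0.09 (0.01 to 0.14), and the cause was not tested. With a fold enrichment of at least 4 there were 1692 (52.6%), of which 32.4% were in a gene with no control peak, with a median of 6.94, a log2 ratio of -0.10, 2 genes above 1 and 17 below -1, a median of 1335 nt and GGACT in 30.0%. These filters keep fewer peaks by construction.

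When a control peak within 100 nt also disqualified a peak, the share was 27.4% and that in a gene with no control peak 23.9%. When overlap of at least 50% of the peak was needed the share was 37.5%, on either strand 28.1% (21.1% in a gene with no control peak), and against control peaks with an FDR of at most 0.05 it was 43.1%. An FDR of at most 0.05 with either strand left 831. With a pseudocount of 0.1 there were 44 genes above 1 and 133 below -1, and SMAD2, of 51 named genes, crossed -1. Where either input reached 5 FPKM the median log2 ratio was 0.01, and in genes at 5 FPKM or more in both inputs 6.21% of peaks had no control peak in the gene. Measured to the nearest end the median distance was 734 nt, and GGAC was held by 47.5%.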
